A study of Homo sapiens with 16 samples.

Results

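ISG15 conjugation was followed through 6 genes. These are ISG15 itself, the enzymes that attach it to proteins (UBA7, UBE2L6 and HERC5), HERC6, a relative of HERC5, and the protease that removes ISG15 (USP18). They were found by symbol in the table of 35993 genes, where all 6 are listed, and all 6 are among the 21297 genes that passed the filter on low counts. The set was chosen by the values of UBA7 with CM-1758 against control, which were lower in every cell line examined, so that UBA7 could be compared with its partners. The changes of all 6 genes between treated and control cells are therefore given as a description. Calls at the thresholds of the fit are counted for them, but nothing is concluded from these counts. Tests are given for the 5 partners of UBA7 on measures that did not enter this choice, namely their levels in control cells and the differences between cell lines.

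The 4 cell lines, TCCSUP, RT112, J82 and 253J, are established bladder cancer (BC) lines labelled WT, each with a treated and a control group of 2 libraries from independent biological replicates, 8 groups and 16 libraries in all. Treated cells received CM-1758, an inhibitor of histone deacetylases, for 48 h at the IC50 determined for their own line, so the dose differed between lines. Control cells received vehicle (0.01% DMSO). TCCSUP was grown in EMEM and the other 3 lines in DMEM, so medium and cell line cannot be told apart for TCCSUP. The values are counts of reads per gene, shown here as CPM, that is, scaled to a common library size with TMM normalization. Totals were 27655401 to 32537104 counts for control libraries and 22506431 to 31547585 for treated ones. In 253J, RT112 and TCCSUP both treated libraries had lower totals than both control libraries, and in J82 the totals overlapped. The libraries of a group differed by more than sampling noise in all 8 groups, and most in J82. The chi-square per degree of freedom was 73.1 in J82 control and 49.2 in J82 treated cells, against 11.7 to 21.8 in the other groups. The fit gave each gene a single spread over all groups, so standard errors for J82 may be too small. Of 10 epithelial and urothelial markers, 6 to 9 reached a mean of 1 CPM in each group, but UPK2 held no counts in 253J, J82 and TCCSUP control cells and UPK3A none in control cells of any line. Markers of leukocytes (PTPRC, CD3E, CD14 and ITGAM) summed to between 0.0654 and 20.9 CPM per library, with CD3E at 0 in all control groups. Markers of fibroblasts and endothelial cells (COL1A1, PDGFRA, PECAM1 and CDH5) summed to 905 to 1089 CPM in TCCSUP control cells. In TCCSUP treated cells they summed to 106 to 108 CPM, against 1.45 to 30.6 CPM in the other lines. Nearly all of the TCCSUP sums was COL1A1, with means of 987 CPM in control and 99.0 CPM in treated cells. In TCCSUP control cells PDGFRA had a mean of 8.82 CPM, CDH5 0.309 CPM and PECAM1 0.0383 CPM. The part of these markers in the results was not tested.

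ISG15 is a ubiquitin-like protein made of a pair of ubiquitin-like domains, and its gene is among those most strongly induced by type I interferon. UBA7 (also called UBE1L) is the E1 enzyme that activates ISG15, UBE2L6 (UBCH8) is the E2 enzyme that carries it, and HERC5 is the main human E3 ligase that transfers it to target proteins, a step known as ISGylation. HERC6 is the closest relative of HERC5 and its neighbour on chromosome 4. USP18 cleaves ISG15 from its targets and also restrains signalling from the type I interferon receptor. All 6 genes are known as interferon-induced genes, and UBA7 is the only E1 enzyme known to activate ISG15.

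The interferon-stimulated response element, through which type I interferon acts on many of its target genes, has at its core a GAAA, any 2 bases and a further GAAA. RefSeq promoter windows of 300 bases, 250 before and 50 after the gene start in GRCh38.p14, were given for 4 of the 6 genes. UBA7 and USP18 had no entry. The 250 upstream bases are shown for ISG15 and HERC5, whose transcripts had the same direction in each of the 4 lines, and for HERC6, which lies beside HERC5 and did not share that direction in RT112. They are written 5′ to 3′ on the strand of the gene, and capitals mark this core or its reverse complement (a TTTC, any 2 bases and a further TTTC).

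ISG15 (chr1:1013247-1013496, + strand): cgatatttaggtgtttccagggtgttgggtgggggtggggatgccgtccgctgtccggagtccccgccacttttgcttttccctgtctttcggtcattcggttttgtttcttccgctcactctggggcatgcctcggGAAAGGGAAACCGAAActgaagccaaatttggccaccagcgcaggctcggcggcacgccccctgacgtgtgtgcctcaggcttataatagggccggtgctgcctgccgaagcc
HERC5 (chr4:88456869-88457118, + strand): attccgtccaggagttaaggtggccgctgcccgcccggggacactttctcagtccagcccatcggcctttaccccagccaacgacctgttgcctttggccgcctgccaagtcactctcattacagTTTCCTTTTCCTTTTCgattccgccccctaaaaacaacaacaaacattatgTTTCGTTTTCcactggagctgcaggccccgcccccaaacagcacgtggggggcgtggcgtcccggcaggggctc
HERC6 (chr4:88378602-88378851, + strand): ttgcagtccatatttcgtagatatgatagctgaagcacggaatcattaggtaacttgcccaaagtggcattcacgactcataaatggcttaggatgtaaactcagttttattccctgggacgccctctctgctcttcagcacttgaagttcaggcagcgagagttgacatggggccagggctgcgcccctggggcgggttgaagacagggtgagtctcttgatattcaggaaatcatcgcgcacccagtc

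The ISG15 window held 2 overlapping matches, the first bases of which lie 113 and 107 bases upstream of the start. HERC5 held 3 matches between 125 and 74 bases upstream, of which 2 overlap. The HERC6 window and both UBE2L6 windows on chromosome 11 held 0. Both strands were searched, and 1255 of 35116 promoter windows in the RefSeq table (3.57%) held at least 1 match. These are matches of letters, not measured binding, and their relation to the changes with CM-1758 was not tested. The windows are in another genome build than the GRCh37 named in the submitters' processing notes.

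UBA7, the activating enzyme, was lower with CM-1758 in all 4 cell lines, with a mean 12.7-fold lower in 253J, 25.1-fold in RT112, 16.8-fold in J82 and 18.2-fold in TCCSUP. In 253J cells it stood at 6.70 and 6.85 CPM in the control libraries and at 0.594 and 0.472 CPM in the treated ones, a log2 fold change of -3.67 (SE 0.70). In J82 cells, which had the highest control level, it went from 88.2 and 59.5 CPM to 7.16 and 1.66 CPM, a log2 fold change of -4.07 (SE 0.55). The J82 treated libraries were 4.32-fold apart, but both lay far below the lower control library. RT112 cells held 11.8 and 7.32 CPM of UBA7 in control and 0 and 0.763 CPM with CM-1758, a log2 fold change of -4.62 (SE 0.73). TCCSUP cells held 25.5 and 22.4 CPM in control and 1.01 and 1.61 CPM with CM-1758, a log2 fold change of -4.19 (SE 0.60). Treated and control libraries did not overlap in any line. Both treated libraries lay below both control libraries in 32.1% of tested genes in 253J, 32.5% in RT112, 27.9% in J82 and 33.1% in TCCSUP, and above both in 40.9%, 41.8%, 34.8% and 45.4%, respectively. In bulk RNA, fewer cells with a transcript and less of it per cell cannot be told apart.

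The low treated values of UBA7 rest on few reads, with 15 and 14 counts in 253J, 0 and 20 in RT112 and 27 and 41 in TCCSUP, against 200 and 49 in J82. The RT112 value depends on which treated library is kept. Without treated replicate 1, which held no UBA7 count, the RT112 log2 fold change was -3.64. Without treated replicate 2 the fitted value was -11.03, which rests on a single library at 0 and is no measured fold. Set at 3 counts, that library by itself lay at least 81.4-fold below the control mean, whereas the other treated library held 0.763 CPM. In J82 the log2 fold change of UBA7 was -5.39 without treated replicate 1 and -3.37 without treated replicate 3. As a call, UBA7 was lower (log2 fold change below -2 and adjusted p under 0.01) in each line. That holds for 23 of the 21297 tested genes, or 0.108%, and nothing is read from this share, since UBA7 was chosen for that pattern.

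**Figure D1:**
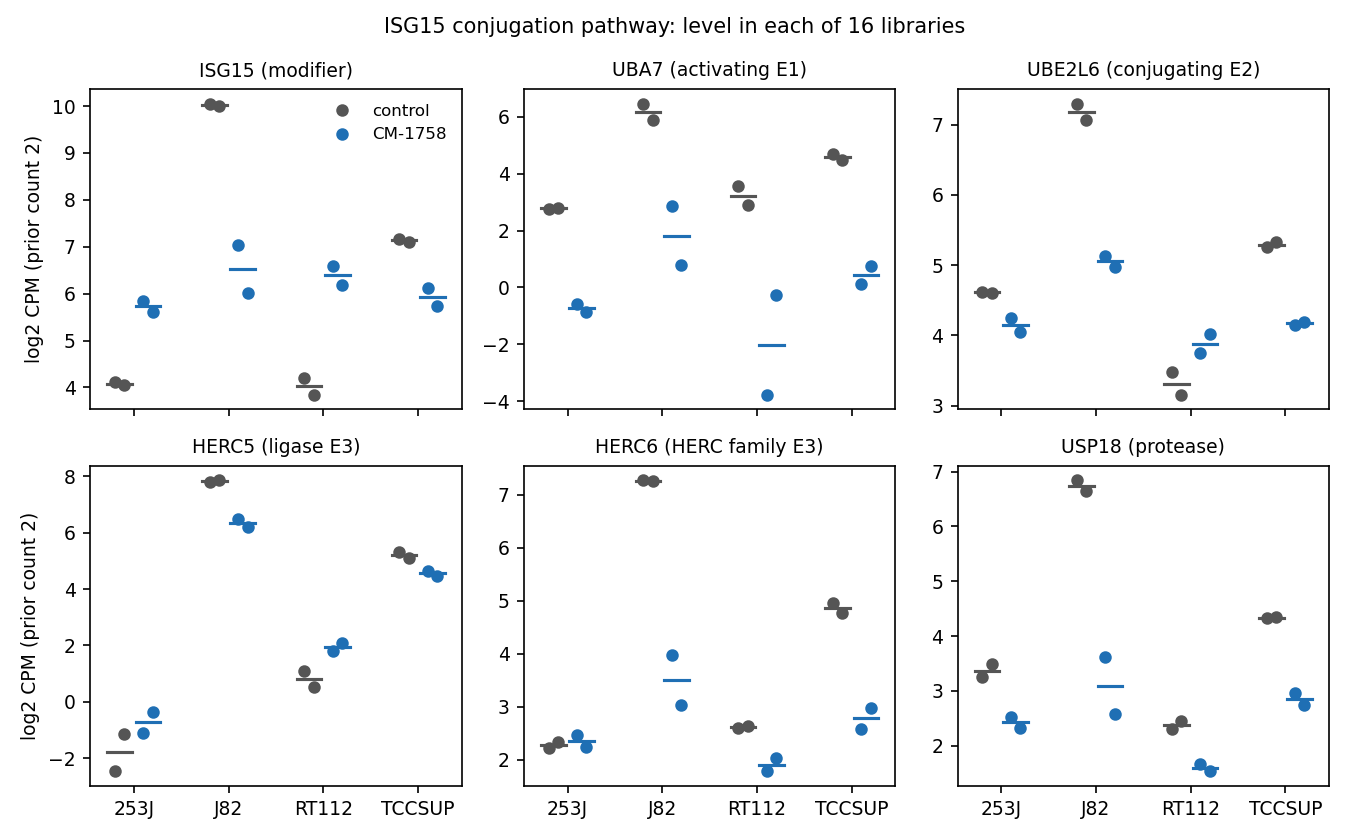
Level of each of the 6 pathway genes in the 16 libraries, as log2 CPM with a prior count of 2, by cell line on the x axis, with control libraries in grey and CM-1758 libraries in blue, each point 1 library and each bar the mean of 2. UBA7 lies lower with CM-1758 in all 4 lines, whereas ISG15 lies higher in 253J and RT112 and lower in J82 and TCCSUP, and its treated libraries gather in a narrow range.

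ISG15, the modifier, went in opposite directions in different lines. It was higher with CM-1758 in 253J, from 17.2 and 16.5 CPM to 57.3 and 48.9 CPM (log2 fold change 1.66, SE 0.26). RT112 showed the same direction, from 18.4 and 14.3 CPM to 96.6 and 72.9 CPM (log2 fold change 2.37, SE 0.27). In J82, where control cells held 1062 and 1029 CPM, it was lower with CM-1758 at 130 and 64.8 CPM (log2 fold change -3.42, SE 0.27). TCCSUP cells went from 144 and 138 CPM to 69.2 and 53.2 CPM (log2 fold change -1.2, SE 0.25). ISG15 libraries did not overlap between treated and control cells in any line, so the same gene lay wholly above control in 2 lines and wholly below in the others. At an adjusted p under 0.01 in each line, 14 tested genes (0.0657%) were higher in 253J and RT112 and lower in J82 and TCCSUP, the pattern of ISG15.

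UBE2L6, the conjugating enzyme, was lower with CM-1758 in J82, from 158 and 134 CPM to 34.9 and 31.4 CPM (log2 fold change -2.14, SE 0.15). It was also lower in TCCSUP, from 38.1 and 40.1 CPM to 17.7 and 18.1 CPM (log2 fold change -1.12, SE 0.15). In 253J the distance was small, from 24.5 and 24.2 CPM to 18.9 and 16.5 CPM (log2 fold change -0.46, SE 0.15). RT112 was the only line in which UBE2L6 was higher with CM-1758, from 11.0 and 8.84 CPM to 13.4 and 16.1 CPM (log2 fold change 0.57, SE 0.15). The groups did not overlap in any line. With scaling by library size alone, the 253J log2 fold change of UBE2L6 was -0.19.

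HERC5, the ligase, shared the direction of ISG15 in every line, with smaller changes. In J82 it went from 221 and 233 CPM to 89.0 and 74.2 CPM (log2 fold change -1.48, SE 0.19). In TCCSUP it went from 40.1 and 34.6 CPM to 25.1 and 22.1 CPM (log2 fold change -0.66, SE 0.20, and -0.35 with scaling by library size alone). RT112 cells held 2.06 and 1.35 CPM of HERC5 in control and 3.44 and 4.16 CPM with CM-1758 (log2 fold change 1.15, SE 0.26). HERC5 was nearly absent from 253J cells, its control libraries holding 3 and 10 counts and its treated libraries 10 and 21, or 0.109 and 0.383 CPM against 0.396 and 0.708 CPM. The higher control library and the lower treated library there both held 10 counts, so the 253J log2 fold change of 1.2 (SE 0.51) is poorly determined. It was 2.32 without 253J control replicate 3, 0.55 without control replicate 2 and 0.70 without treated replicate 3.

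HERC6, the neighbour of HERC5, did not follow it in 253J or RT112. In 253J its libraries overlapped, with 4.60 and 4.94 CPM in control and 5.46 and 4.62 CPM with CM-1758 (log2 fold change 0.078, SE 0.26, and -0.045 without treated replicate 1). In RT112 HERC6 was lower with CM-1758, at 3.36 and 4.0 CPM against 5.95 and 6.10 CPM (log2 fold change -0.71, SE 0.26), while HERC5 was higher there. J82 cells went from 155 and 152 CPM to 15.6 and 8.05 CPM (log2 fold change -3.70, SE 0.24), the largest change of a partner gene in these data. TCCSUP cells went from 30.8 and 27.3 CPM to 5.87 and 7.83 CPM (log2 fold change -2.08, SE 0.24). The nearest gene of the HERC5 and HERC6 pair that the table lists, the pseudogene NCOA4P2, was too low to be tested.

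USP18, the protease, was lower with CM-1758 in all 4 lines without overlap, which UBA7 also was and the other 4 genes were not. It went from 9.41 and 11.2 CPM to 5.70 and 4.93 CPM in 253J (log2 fold change -0.96, SE 0.25). RT112 cells held 4.84 and 5.35 CPM in control and 3.09 and 2.82 CPM with CM-1758 (log2 fold change -0.78, SE 0.27). The difference was largest in J82, from 115 and 100 CPM to 12.2 and 5.85 CPM (log2 fold change -3.58, SE 0.25). In TCCSUP, USP18 went from 19.9 and 20.2 CPM to 7.67 and 6.65 CPM (log2 fold change -1.49, SE 0.24). Of all tested genes, 10.5% lay below control in all 4 lines without overlap. USP41, a near-identical copy of USP18 on the same chromosome, has no row in the count table, and how its reads were counted is not given in the sources used here, so USP18 counts may include reads of that copy.

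In J82, treated replicate 3 lay below treated replicate 1 for all 6 genes, from 1.11-fold for UBE2L6 to 4.32-fold for UBA7, and both lay below both control libraries. Calls rest on the comparison by which UBA7 was chosen, so its own calls follow from that choice and the counts are a description. In J82, 5 of the 6 genes, UBA7 among them, were called lower, all but HERC5, where 1.24% of tested genes were called lower. With scaling by library size alone, UBE2L6 (-1.99) was not called there. In TCCSUP, UBA7 and HERC6 were called lower (3.31% of tested genes), and HERC6 lost its call without TCCSUP control replicate 1 or treated replicate 1. In 253J and RT112, UBA7 alone was called lower (3.5% and 1.39% of tested genes). ISG15 in RT112 was the 1 gene of the 6 called higher (11.4% of tested genes), and none was called higher in 253J (9.43%), J82 (8.81%) or TCCSUP (14.2%).

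UBA7 had the lowest fitted log2 fold change of the 6 genes in each line. Its distance to the partners was widest in RT112, where the difference of its log2 fold change was -6.99 to ISG15 and -3.83 to USP18, the nearest partner. In 253J the distances ran from -2.71 to USP18 to -5.32 to ISG15, and in TCCSUP from -2.11 to HERC6 to -3.53 to HERC5. In J82 they were small for HERC6 (-0.37), USP18 (-0.49) and ISG15 (-0.65), beside an SE of 0.55 for the UBA7 value there. These 3 partners thus lay near UBA7 in J82, whereas in the other lines every partner lay at least 2.11 above it. These distances are differences between log2 fold changes of the same libraries and are given as a description.

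Before treatment, the lines differed widely in these genes. J82 had the highest control level of every one of the 6 genes and TCCSUP the next. For ISG15, control cells held 1046 ± 23.6 CPM (SD, n = 2) in J82, 141 ± 4.54 in TCCSUP, 16.8 ± 0.516 in 253J and 16.3 ± 2.86 in RT112. HERC5 had the widest range, from 227 ± 8.07 CPM (SD, n = 2) in J82 to 0.246 ± 0.194 CPM in 253J. UBA7 ranged less, from 73.8 ± 20.3 CPM (SD, n = 2) in J82 to 6.78 ± 0.111 CPM in 253J.

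The control level differed over the 4 lines for all 5 partners in edgeR's quasi-likelihood F test, with an adjusted p of 3.60e-11 for ISG15, 2.92e-11 for UBE2L6, 1.01e-12 for HERC5, 6.92e-11 for HERC6 and 7.13e-10 for USP18. Such differences are common, since 69.9% of all tested genes passed the same test. Among the partners, the step from J82 to TCCSUP was a log2 difference of 1.90 to 2.89 and passed for all 5 (36.5% of tested genes did). At the lower end, ISG15 did not differ detectably between 253J and RT112 (log2 difference 0.042, SE 0.26, edgeR adjusted p = 0.975), nor did HERC6 (-0.34, SE 0.25, adjusted p = 0.284). UBE2L6 and USP18 were higher in 253J than in RT112, by 1.29 (SE 0.15, adjusted p = 3.45e-06) and 1.01 (SE 0.25, adjusted p = 0.003) on the log2 scale in edgeR. HERC5 was lower in 253J than in RT112 (log2 difference -2.80, SE 0.41, edgeR adjusted p = 3.42e-05), where 43.8% of tested genes differed between these lines. In the other pairs all 5 partners passed, namely 253J against J82 (42.3% of tested genes did), 253J against TCCSUP (41.7%), J82 against RT112 (41.9%) and RT112 against TCCSUP (41%).

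The change with CM-1758 itself differed between the lines for all 5 partners. The interaction F test in edgeR gave an adjusted p of 8.67e-08 for ISG15, 1.01e-06 for UBE2L6, 4.65e-05 for HERC5, 2.61e-06 for HERC6 and 3.57e-05 for USP18, and 36.6% of all tested genes passed it. Between J82 and RT112 all 5 partners differed, where 12.7% of tested genes did. The ISG15 log2 fold change in J82 minus that in RT112 was -5.79 (SE 0.38, edgeR adjusted p = 1.56e-07), and for the other 4 partners the difference was -2.62 to -2.99. Between 253J and J82 all 5 differed too (19.1% of tested genes did), with ISG15 5.08 higher in 253J (SE 0.38, edgeR adjusted p = 2.81e-07).

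The other pairs of lines gave fewer differences among the partners. In RT112 against TCCSUP 4 of the 5 differed, all but USP18 (17.3% of tested genes did), and in 253J against TCCSUP 2 of the 5 did, ISG15 and HERC6 (17.9%). Between 253J and RT112, UBE2L6 was the 1 partner of 5 whose change differed (-1.03, SE 0.21, edgeR adjusted p = 0.00198), against 19.2% of tested genes, while ISG15 did not pass (-0.72, SE 0.36, adjusted p = 0.161). Between J82 and TCCSUP, 4 of the 5 differed, all with the larger decrease in J82, and HERC5 missed the threshold (-0.81, SE 0.27, edgeR adjusted p = 0.0459), against 12.6% of tested genes. For USP18, the change differed from J82 to each other line but not among 253J, RT112 and TCCSUP, where the differences were -0.17 (SE 0.37), 0.53 (SE 0.35) and 0.70 (SE 0.37) with edgeR adjusted p of 0.851, 0.296 and 0.181. No test result is given for UBA7, which was chosen for a change shared by all lines. For UBA7 each of the 6 differences between lines was smaller than its own standard error, which ran from 0.77 to 1.14, so differences of that size cannot be resolved with 2 libraries per group. Given how UBA7 was chosen, these values are a description and do not show an equal change in the 4 lines.

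After treatment, the 4 lines lay closer together in the partners than before it. The highest mean ISG15 level was 64.0-fold the lowest in control cells and 1.84-fold in treated cells, where means ran from 53.1 ± 5.90 CPM (SD, n = 2) in 253J to 97.6 ± 46.4 CPM in J82. The ratio went from 14.7 to 2.25 for UBE2L6, from 32.2 to 3.21 for HERC6 and from 21.1 to 3.05 for USP18. HERC5 remained far apart, with a ratio of 923 in control and 148 in treated cells, but the lowest control mean is that of 253J with 3 and 10 counts, and the control ratio was 593 without 253J control replicate 2 and 2089 without control replicate 3. For UBA7 the ratio was 10.9 in control and 11.6 in treated cells, where leaving out the first J82 library (replicate 1) gave 4.35 and leaving out the other (replicate 3) gave 18.8, so whether the UBA7 levels drew closer cannot be told from these libraries.

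As log2 ranges over the lines, ISG15 went from 6.0 to 0.80, and 0.887% of tested genes had as large a reduction. The share was 4.12% for HERC6 (4.99 to 1.59), 5.8% for USP18 (4.38 to 1.49), 6.59% for UBE2L6 (3.87 to 1.17) and 7.25% for HERC5 (9.62 to 7.07). The median tested gene had a range of 1.56 in control and 1.68 in treated cells. A range cannot shrink by more than its control value, so a gene at that median could not match the reduction of any partner. The shares are thus not set against genes of a similar control range, and they do not show that the reductions were unusual for such genes. A test of the treated level over the 4 lines, added after the data had been seen, gave an edgeR adjusted p of 0.0156 for ISG15, which did not pass 0.01, and of 1.37e-05 for UBE2L6, 3.97e-11 for HERC5, 0.000101 for HERC6 and 0.000423 for USP18, which did (73.1% of tested genes passed). All 5 passed with DESeq2 and without J82 treated replicate 3.

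Levels of different genes were compared per length, as mean CPM per kilobase of merged exons in the GENCODE 29 basic annotation. On this scale ISG15 was the highest of the 6 genes in every group. In control cells UBA7 stood at 2.05 in 253J, 2.90 in RT112, 22.4 in J82 and 7.25 CPM per kilobase in TCCSUP, within the range of the other enzymes in 253J and RT112, below all of them in J82 and level with HERC6 (7.44) in TCCSUP. With CM-1758 it stood at 0.162 in 253J, 0.116 in RT112, 1.34 in J82 and 0.398 CPM per kilobase in TCCSUP. Its mean was then the lowest of the 6 genes in J82, RT112 and TCCSUP, and in 253J it lay beside HERC5 at 0.154, which was at or near its counting limit.

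The ratio of ISG15 to UBA7 per length was higher with CM-1758 in all 4 lines, also where ISG15 itself was lower. It was 9.0 and 8.42 in the 253J control libraries and 338 and 363 in the treated ones. In TCCSUP it was 19.8 and 21.5 in control and 240 and 116 with CM-1758. J82 had the highest control ratios, 42.2 and 60.6, with 63.9 and 137 in treated cells, so that its highest control ratio lay close to its lowest treated ratio. The RT112 ratio was 5.46 and 6.87 in control and 335 in treated replicate 2, while treated replicate 1, with no UBA7 count, had a ratio of at least 2886 at 3 counts. By library these ratios were computed after the group means had been seen. UBA7, the denominator, was chosen for its lower values in all 4 lines. A higher ratio in every line is thus a description and no separate result.

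The genes whose level followed UBA7 most closely over the 16 libraries were DXO (Pearson r = 0.947), ACTR3C (0.946), NOL3 (0.942), PSMB8 (0.939) and FPGS (0.934), among 14207 tested genes with a mean log2 CPM above 0. The 16 libraries share the 4 lines and the treatment, so these are descriptions of likeness only. PSMB8, an interferon-inducible subunit of the immunoproteasome, was lower with CM-1758 by a similar amount in each line, with log2 fold changes of -2.37, -2.26, -2.15 and -2.22 in 253J, J82, RT112 and TCCSUP. DXO, an enzyme that removes incomplete caps from RNA, had log2 fold changes of -1.39 to -1.93. The list depends on the measure, since 1 of the 5 genes (ACTR3C) was also among the 5 most alike by deviations from each line's mean, and 1 (NOL3) among the 5 by Spearman's correlation. Among the partners, USP18 had the highest r with UBA7 (0.823, rank 277), followed by HERC6 (0.794, rank 419), UBE2L6 (0.680, rank 1189), HERC5 (0.449, rank 3244) and ISG15 (0.399, rank 3695).

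The neighbours of UBA7 in the RefSeq gene table were INKA1 on one side and TRAIP on the other, and neither had its pattern. TRAIP, a ubiquitin ligase of the DNA damage response, was lower with CM-1758 in 253J (log2 fold change -1.85, edgeR adjusted p = 4.71e-05), J82 (-1.04, adjusted p = 0.00433) and TCCSUP (-1.23, adjusted p = 0.00122). In RT112 TRAIP had a log2 fold change of 0.094 (edgeR adjusted p = 0.821). INKA1, an inhibitor of the kinase PAK4, rose in 253J from 0 and 5 counts to 29 and 41 counts (log2 fold change 3.70, edgeR adjusted p = 0.000392), and had values of 0.93 in J82, -1.5 in RT112 and 1.13 in TCCSUP, which did not pass 0.01. The microRNA gene MIR5193 overlaps UBA7, had at most 3 counts in any group and was not tested.

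UBA7 was set beside 6 wider lists of genes around the pathway, all of whose genes are in the table and were tested. The background at an adjusted p under 0.01 was 18.1% lower and 21.4% higher in 253J, 13.3% and 17.4% in J82, 14.7% and 20% in RT112, and 17.2% and 23.7% in TCCSUP. The other 9 E1 enzymes and subunits, which activate ubiquitin and its other relatives, did not share the change of UBA7. Of them, 1 was lower and 1 higher in 253J, 2 and 1 in RT112, 1 and 0 in J82 and 4 and 2 in TCCSUP. Their medians were 0.086, -0.37, 0.0039 and -0.22 on the log2 scale in the same order, against 0.10, 0.12, 0.047 and 0.20 for all tested genes, and the lowest single value was -0.97. That value was of NAE1, a subunit of the E1 enzyme for NEDD8, which fell in 253J (edgeR adjusted p = 0.000145), RT112 (-0.56, adjusted p = 0.00972) and TCCSUP (-0.61, adjusted p = 0.00451) and had -0.45 in J82 (adjusted p = 0.0317). UBA1, the main E1 enzyme of ubiquitin, rose in TCCSUP (0.44, edgeR adjusted p = 0.00881) and had 0.18 in 253J, 0.18 in J82 and 0.30 in RT112.

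Of 9 other enzymes linked to ISG15, 5 were lower and 1 higher in 253J, 4 and 3 in RT112, 4 and 2 in J82 and 5 and 2 in TCCSUP. ARIH1, an E3 ligase reported to act on ISG15, rose in all 4 lines, by 1.24 in 253J, 0.53 in RT112, 0.55 in J82 and 0.92 in TCCSUP on the log2 scale (edgeR adjusted p between 7.53e-07 and 0.00169). USP5 and USP21, proteases with some activity towards ISG15, fell in all 4, USP5 with log2 fold changes of -0.84 in J82 to -1.73 in TCCSUP (edgeR adjusted p at most 0.00026) and USP21 with -0.87 in RT112 to -1.2 in J82 (edgeR adjusted p at most 0.00738). USP2, a further protease of this kind, rose in RT112 from 7 and 7 counts to 95 and 99 counts (log2 fold change 3.98, edgeR adjusted p = 2.06e-06) and in TCCSUP (1.42, adjusted p = 0.002). USP2 was at 0 counts in both J82 control libraries and at 17 and 24 counts with CM-1758, at least 6.37-fold higher at 3 counts, and had 0.90 in 253J (edgeR adjusted p = 0.0213).

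Of the 5 paralogs of the E2 and E3 enzymes, 0 were lower and 3 higher in 253J, 1 and 2 in RT112, 1 and 2 in J82 and 1 and 1 in TCCSUP. HERC3 rose in 253J from 17 and 16 counts to 105 and 128 counts (log2 fold change 2.78, edgeR adjusted p = 2.52e-07), in J82 (1.10, adjusted p = 9.30e-05) and in RT112 (0.67, adjusted p = 0.00328), and had -0.070 in TCCSUP. UBE2L3, the closest relative of UBE2L6 and an E2 enzyme of ubiquitin, fell in J82 (-0.61), RT112 (-0.57) and TCCSUP (-0.83), with edgeR adjusted p of 0.00665, 0.00862 and 0.000625, and had -0.21 in 253J. Among 8 other ubiquitin-like modifiers, 1 was lower and 3 higher in 253J, 3 and 0 in RT112, 2 and 0 in J82 and 4 and 1 in TCCSUP. SUMO3 fell in all 4 lines, with log2 fold changes of -1.62 in 253J, -1.21 in RT112, -1.44 in J82 and -2.81 in TCCSUP (edgeR adjusted p at most 9.98e-05). UBD, the modifier also called FAT10, passed in none, and its RT112 and TCCSUP control libraries were at 3 counts or fewer.

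Of 6 genes of the type I interferon receptor and its signalling, 3 were lower and 2 higher in 253J, 0 and 2 in RT112, 3 and 0 in J82 and 4 and 0 in TCCSUP. Over the lines 4 combinations of gene and line were higher, and 2 without RT112 control replicate 2. IRF9, the DNA-binding part of the complex that acts on the response element, rose in 253J (1.02, edgeR adjusted p = 0.000804), fell in J82 (-2.72, adjusted p = 2.61e-07) and TCCSUP (-2.16, adjusted p = 1.21e-06) and had 0.71 in RT112 (adjusted p = 0.0126). STAT2, another part of that complex, which was named after its values were seen, passed in all 4 lines with the signs of ISG15, at 1.12 in 253J, 0.82 in RT112, -1.85 in J82 and -0.72 in TCCSUP (edgeR adjusted p at most 0.00157). Of 14 other interferon-induced genes, 14 were lower in J82 and 13 in TCCSUP, with none higher, against 5 lower and 1 higher in 253J and 1 lower and 5 higher in RT112. Their median log2 fold changes were -3.70 in J82, -2.60 in TCCSUP, -0.55 in 253J and 0.42 in RT112. In 253J the median was -0.72 when 2 genes with at most 3 counts in each control library took their bound.

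IFI6, an interferon-induced mitochondrial protein, also passed in all 4 lines with the signs of ISG15, at 1.94 in 253J, 3.05 in RT112, -1.5 in J82 and -1.42 in TCCSUP (edgeR adjusted p at most 0.000798). IFIT2, an RNA-binding antiviral protein, fell in all 4 lines, with log2 fold changes of -1.77 in 253J, -1.09 in RT112, -2.48 in J82 and -4.77 in TCCSUP (edgeR adjusted p at most 0.00797). IFIT3, its partner, fell in 253J (-2.47), J82 (-4.66) and TCCSUP (-5.34), with edgeR adjusted p of at most 0.00188, and had -1.86 in RT112 (adjusted p = 0.014). In RT112, where UBA7 had its lowest fitted log2 fold change (-4.62), none of the 14 lay as low. The splits of the lists other than the interferon-induced genes depend on the scaling. With library size alone, which raised the median log2 fold change of all tested genes by 0.14 to 0.31, the gene and line combinations lower and higher were 2 and 7 for the E1 enzymes (8 and 4 with TMM), 13 and 10 for the ISG15-linked enzymes (18 and 8), 1 and 9 for the paralogs (3 and 8), 7 and 6 for the modifiers (10 and 4) and 6 and 5 for interferon signalling (10 and 4).

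**Figure D2:**
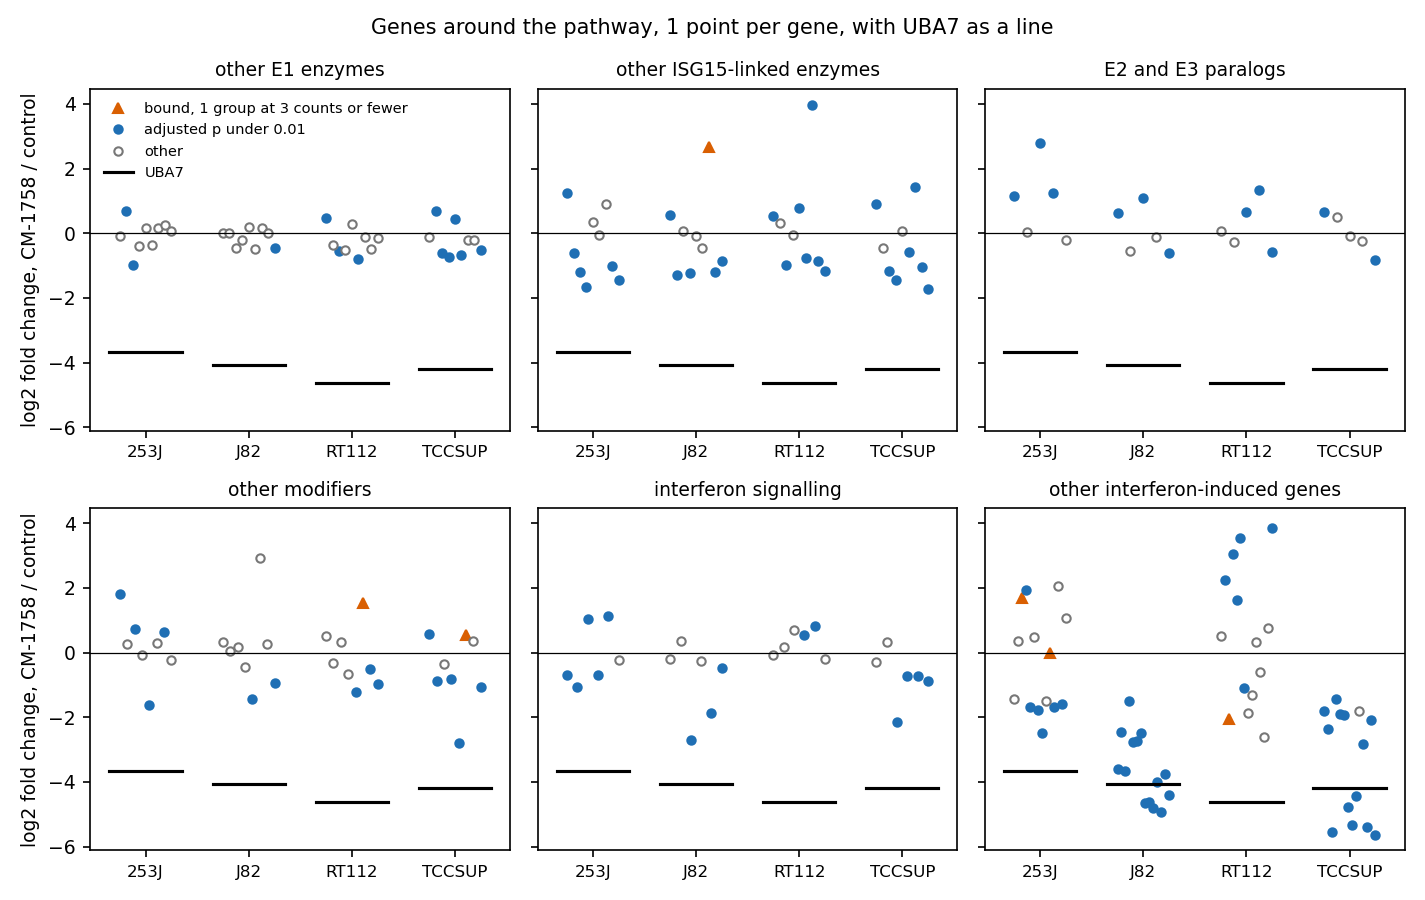
Log2 fold change with CM-1758 against control (y axis) of each gene of the 6 wider lists, by cell line on the x axis, with filled circles for an adjusted p under 0.01 in edgeR, open circles for other genes, triangles for the bound of genes with 1 group at 3 counts or fewer, and a black line for UBA7. No other E1 enzyme lies below -0.97, whereas several interferon-induced genes lie at or below UBA7 in J82 and TCCSUP.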

How the data were processed

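The authors deposited 1 table of raw counts, whole numbers of reads per gene symbol in each of the 16 libraries, which came from stranded total RNA depleted of ribosomal RNA and sequenced on the NovaSeq platform. The submitters' processing notes name HISAT2, StringTie and GRCh37, and the step that gave the counts, its strand setting and the annotation are not given in the sources used here. All columns were matched to samples by their labels, and 0 were left over. Gene members and gene lists were chosen with earlier results of these data known, and 1 gene in each of 2 lists is not reported here.

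After filterByExpr, which kept 21297 genes over the 8 groups, counts were scaled by TMM (factors 0.846 to 1.13). A single quasi-likelihood fit of all 16 libraries with edgeR 4.0.16 (R 4.3.3) left 8 residual degrees of freedom and a common biological coefficient of variation of 0.153. P-values were adjusted by Benjamini-Hochberg over all tested genes. Calls needed an adjusted p under 0.01 together with a log2 fold change beyond 2 or -2, and lists and differences between cell lines the former alone. Log2 CPM used a prior count of 2, and 3 counts were taken as the floor. Genes named beside the members were, in each list, those past 0.01 in 1 direction in all 4 lines and that with the largest mean rise or fall, the 5 genes most alike to UBA7, the neighbours of UBA7 and of the HERC5 and HERC6 pair, and USP41. Neighbours and promoter sequences came from RefSeq tables of GRCh38.p14. On simulated counts for J82 over 21297 genes, 195 of 200 genes changed 8-fold were called in the right direction, with 2 other calls. The changed genes were drawn from those well above the floor in J82, and the counts had the spread estimated by the fit. Genes of few counts, such as UBA7 in treated cells of the other lines, and changes near the limit are not covered.

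Alternatives were RLE scaling, library size alone, DESeq2 1.42.0, no filter, other thresholds, each line alone, the replicate number as a block and leaving out each library. The test of treated levels, the ISG15 to UBA7 ratio per library and the ratios between lines without each library were added after the data had been seen.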

Additional observations from a re-analysis of the deposited data

Results flagged for a closer look

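The change of each of the 5 partners of UBA7 with CM-1758 differed between the 4 cell lines by a test of the difference itself (interaction F test in edgeR, adjusted over all tested genes, of which 36.6% passed an adjusted p of 0.01). The adjusted p in edgeR was 8.67e-08 for ISG15, which was higher with CM-1758 in 253J and RT112 and lower in J82 and TCCSUP. It was 1.01e-06 for UBE2L6, which was higher in RT112 and lower in the other 3 lines. HERC5, with the signs of ISG15, had an edgeR adjusted p of 4.65e-05. HERC6 (edgeR adjusted p = 2.61e-06) and USP18 (edgeR adjusted p = 3.57e-05) differed mainly in size, with their lowest log2 fold changes in J82, at -3.70 and -3.58.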

How the results depend on the processing

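The 24 log2 fold changes of the 6 genes kept their direction under scaling by RLE or library size alone, DESeq2, no filter and each line alone. HERC6 in 253J (0.078) changed sign with the replicate block (-0.096) and without 253J CM-1758 replicate 1 (-0.045). In 253J the control and treated libraries share only replicate 3, so with the block the 253J values come from that replicate alone. With library size alone, UBE2L6 in J82 had a log2 fold change of -1.99 and lost its call. Scaling by library size alone left 1 gene called lower in TCCSUP (main value 2), 2 E1 combinations of gene and line lower (8) and 7 higher (4), 1 paralog combination lower (3) and 6 interferon signalling combinations lower (10). RLE scaling also gave 1 paralog combination lower, DESeq2 gave 7 modifier combinations higher (4), and no filter gave 2 E1 combinations higher. The next counts, with no limit on the fold, include UBA7, which was chosen for its lower values. In 253J 2 genes were lower (18.1% of tested genes were) and 1 higher (21.4%). In RT112 3 were higher (20%) and UBA7 alone was lower (14.7%). In TCCSUP 5 were lower (17.2%), and in J82 all 6 were (13.3%). At an adjusted p under 0.05, 13 E1 combinations were lower and 7 modifier combinations higher. Spearman's correlation and deviations from each line's mean each kept 1 of the 5 genes most like UBA7. The cause of these moves was not tested. Leaving out 1 library in turn, the genes called lower in TCCSUP numbered 1 to 2, E1 combinations 2 to 10 lower and 1 to 4 higher, paralog combinations 1 to 3 lower, modifier combinations 1 to 5 higher and interferon signalling combinations 2 to 5 higher, while all 5 partners passed both tests between lines each time. With 1 library left in a group, it is assumed to vary like the others. Samples with the same replicate number did not all deviate together (correlations of 0.0173 in TCCSUP, 0.0427 in RT112, 0.0529 in 253J and 0.218 in J82), so the numbers are not taken as pairs. The replicate block kept the number of members called in each line, with UBA7 at -3.85, -4.27, -4.59 and -4.19 in 253J, J82, RT112 and TCCSUP, and E1 combinations at 10 lower and 3 higher. Control levels could not be tested with the block or with each line alone. Depth limits UBA7 in treated cells (0 to 41 counts outside J82) and HERC5 in 253J (3 to 21 counts).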
